A study of Mus musculus with 12 samples.

Results

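Malat1, Neat1, Meg3, Rian, Mirg, Kcnq1ot1 and Tug1 are long noncoding RNAs (lncRNAs) known chiefly for work in the nucleus or for their place in imprinted gene clusters. They were chosen by name, with earlier results of these data known, and the count files held all 7 among 55416 gene identifiers. All 7 passed the filter on low counts that left 16221 tested genes, 960 of them annotated as lncRNA genes. The comparisons asked how much of each RNA came with purified ribosomes, set against the RNA of the whole cell, and whether ribosomes labelled at the ER and in the cytosol differed in this.

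The cells, E14Tg2a.4, are an established line of mouse embryonic stem cells. Their ribosomal protein Rpl31 was tagged with FLAG, a cleavage site for TEV protease and an AviTag that can be biotinylated (Rpl31-FTA). All groups shared this tag and the transfection of plasmids for the N- and C-terminal fragments of ALIBi, a split biotinylation system. The 4 groups, of 3 biological replicates each, were ribosome-bound RNA after ALIBi targeting to the endoplasmic reticulum (ER), ribosome-bound RNA after targeting to the cytosol, whole-cell RNA of the ER-targeted cells and whole-cell RNA of the cytosol-targeted cells. Biotinylated ribosomes were purified from detergent lysates that held cycloheximide and were released by TEV protease, and whole-cell RNA came from lysate set aside before purification. No label gives an siRNA for these libraries, and none says that the biological replicates were separate cultures. The p-values therefore speak only of the spread among these libraries, which may be technical.

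Malat1 and Neat1 are nuclear RNAs made from neighbouring genes. Malat1 collects in nuclear speckles, where splicing factors are stored, and Neat1 is the scaffold of paraspeckles. Meg3, Rian and Mirg lie in a row in the imprinted Dlk1-Dio3 cluster and are made from the maternal chromosome. Meg3 is studied as a nuclear regulator, Rian is the host of C/D small nucleolar RNAs (snoRNAs) and Mirg is the host of a microRNA cluster. Kcnq1ot1 is made from the paternal chromosome, antisense to the potassium channel gene Kcnq1, and silences the genes around it. Tug1 is a spliced lncRNA found in nucleus and cytoplasm, and in some of its transcripts introns are kept, which holds them in the nucleus. Translating ribosomes work outside the nucleus, free or bound to the ER, where exported mRNAs meet them.

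How these RNAs end bears on what a library of poly(A) RNA can read. The long forms of Malat1 and Neat1 are known to be cut by RNase P and to end not in a poly(A) tail but in an encoded A-rich tract held in a triple helix. The windows of 100 nt that end with this tract are shown because both RNAs were still counted in all 12 libraries. The capitals mark a U-rich element, written with T, and the A-rich tract that follows it. The sequences are from the transcript set of GENCODE M21 (build GRCm38), written 5′ to 3′ on the transcript strand, which is the minus strand of chromosome 19 for both genes.
Malat1, positions 6592 to 6691 of Malat1-201: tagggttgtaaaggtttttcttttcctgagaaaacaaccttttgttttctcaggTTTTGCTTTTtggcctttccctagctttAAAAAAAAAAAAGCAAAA
Neat1, positions 20672 to 20771 of Neat1-201: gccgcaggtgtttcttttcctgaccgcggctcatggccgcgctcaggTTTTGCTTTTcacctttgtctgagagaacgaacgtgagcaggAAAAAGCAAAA
In Neat1 the tract was the last 11 nt of the annotated transcript, and in Malat1 the 18-nt tract stood 292 nt before the annotated end. The search was for the same U-rich element followed, within 60 nt, by at least 5 A and GCAAAA, on the transcript strand only. Among 139316 annotated transcripts it matched those of 3 genes, Malat1, Neat1 and Retreg3.

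The hexamer AATAAA, the common signal for polyadenylation, stood in the last 100 nt of the longest annotated transcript of Malat1, Meg3, Rian, Mirg, Kcnq1ot1 and Tug1, and not of Neat1. It was present in that window in 28.9% of all annotated transcripts. The last 100 nt of the 3 best-counted of these RNAs besides Malat1 are shown with the hexamer in capitals, on the plus strand of chromosome 12 for Meg3 and Rian and on the minus strand of chromosome 11 for Tug1.
Meg3, end of Meg3-209: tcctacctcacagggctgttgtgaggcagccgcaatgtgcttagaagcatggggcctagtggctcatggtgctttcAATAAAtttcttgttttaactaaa
Rian, end of Rian-201: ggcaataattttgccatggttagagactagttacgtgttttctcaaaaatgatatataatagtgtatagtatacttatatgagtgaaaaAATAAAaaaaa
Tug1, end of Tug1-201: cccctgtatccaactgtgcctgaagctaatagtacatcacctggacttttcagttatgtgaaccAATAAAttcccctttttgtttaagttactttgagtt
The longest annotated transcripts measured 6.983 kb for Malat1, 20.771 kb for Neat1, 14.548 kb for Meg3, 8.089 kb for Rian, 3.822 kb for Mirg, 93.092 kb for Kcnq1ot1 and 6.719 kb for Tug1. The longest reading frame opened by ATG covered 2.75% of the Malat1 transcript, 1.82% of Neat1, 3.84% of Meg3, 2.82% of Rian, 7.93% of Mirg, 0.806% of Kcnq1ot1 and 3.39% of Tug1.

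Gene reads per library, in M (mega) reads, ran from 23.4 to 26.9 M for ER-targeted ribosomes, from 23.3 to 25.1 M for cytosol-targeted ribosomes, from 21.1 to 26.8 M for whole-cell RNA with ER targeting and from 23.4 to 25.5 M for whole-cell RNA with cytosol targeting. Stem cell markers were read in all libraries, with the 10 markers summing to 8532 to 13673 CPM (counts of a gene per M gene reads of the TMM-scaled library). The 6 fibroblast markers, none at 0 in every library, summed to 68.6 to 74.2 CPM on ER-targeted ribosomes and to 18.7 to 21.9 CPM across the other 9 libraries. The 3 that passed the count filter, Col1a1, Col1a2 and Thy1, encode secreted or membrane proteins, and their part in the results was not tested. Mitochondrial mRNAs are translated inside mitochondria, by other ribosomes. Summed over 13 genes, their level on ER-targeted ribosomes was 2.03% of that in ER whole-cell RNA, and on cytosol-targeted ribosomes 1.87% of that in cytosol whole-cell RNA.

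The 7 lncRNAs divided into a set that was higher on ribosomes than in the whole cell and a set that was lower, and no RNA was called in opposite directions with ER and cytosol targeting. Malat1, Meg3 and Tug1 were higher on ribosomes in both. Neat1, Rian and Mirg were lower in both, and Kcnq1ot1 was lower past the threshold in the cytosol comparison. A gene was called at a Benjamini-Hochberg adjusted p under 0.05 over all 16221 genes, from the quasi-likelihood test of edgeR. Over ER whole-cell RNA, 3 of 7 were called higher and 3 lower, where 32.5% of all tested genes were called higher and 30.6% lower (63.1% in either direction). Over cytosol whole-cell RNA, 3 were called higher and 4 lower, against 20.8% and 33.0% of all tested genes (53.9% in either direction). Among the lncRNA genes tested, 16.2% were called higher and 13.3% lower (29.6% in either direction) in the ER comparison, and 10.3% and 15.9% (26.2%) in the cytosol comparison. The median log2 ratio of the 7 was -0.13 and -0.74, beside 0.01 and -0.05 over all tested genes. Levels are relative to the other RNAs of a library, and in bulk samples fewer cells with an RNA and less of it per cell cannot be told apart.

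**Figure D1:**
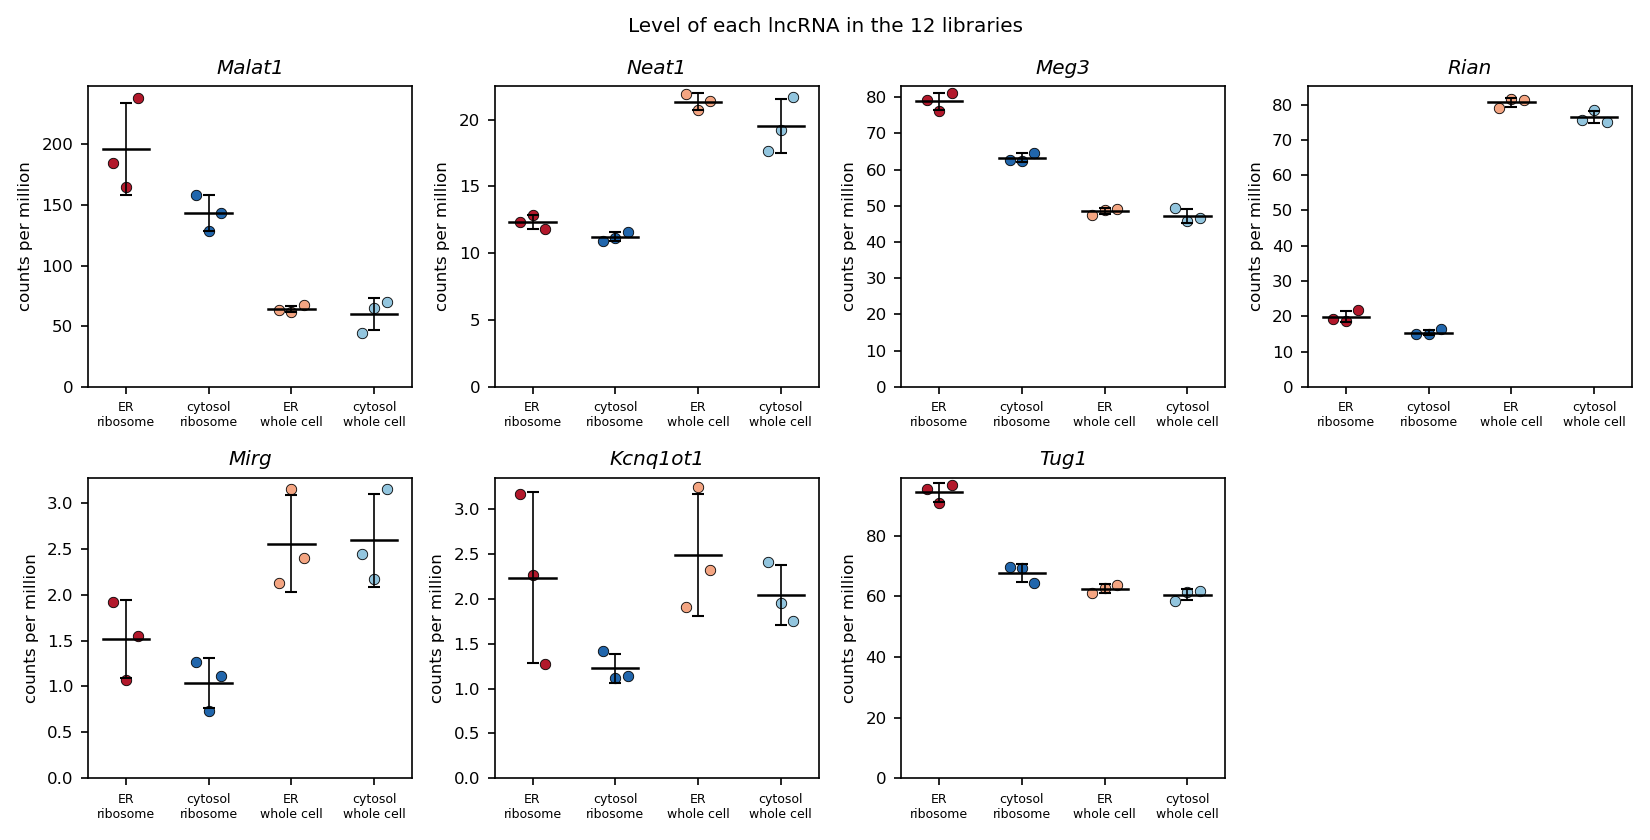
Level of each lncRNA, in TMM-scaled CPM on a linear axis from 0, in the 3 libraries of each group (points), with the mean (line) and SD (bars). Malat1, Meg3 and Tug1 stand higher in both ribosome-bound groups than in their whole-cell groups, and Neat1, Rian and Mirg stand lower.

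Malat1, the speckle RNA, was far higher on ribosomes than in the whole cell. It measured 185, 165 and 238 CPM in the 3 ER ribosome-bound libraries, against 63.3, 62.1 and 67.3 CPM in ER whole-cell RNA. The lowest ribosome-bound library stood far above the highest whole-cell one. The difference was 3.04-fold (log2 1.61, SE 0.098, adjusted p = 1.03e-16 by edgeR). With cytosol targeting, Malat1 measured 158, 129 and 144 CPM on ribosomes, against 44.7, 64.8 and 69.8 CPM in whole-cell RNA. These groups did not overlap either, although cytosol whole-cell replicate 1 lay well below its companions. The difference was 2.41-fold (log2 1.27, SE 0.099, adjusted p = 2.36e-13 by edgeR). Of the 960 tested lncRNA genes, 20 had a larger log2 ratio than Malat1 in the ER comparison and 29 in the cytosol comparison. An antisense gene, Gm37376, overlaps 6.49% of the Malat1 exon length, and the strand setting of the counting is not given in the sources used here.

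Neat1, which shares the neighbourhood and the A-rich 3′ tract of Malat1, went the other way. It measured 12.3, 12.8 and 11.8 CPM in ER ribosome-bound RNA, against 21.9, 20.7 and 21.4 CPM in ER whole-cell RNA. On cytosol-targeted ribosomes it measured 10.9, 11.2 and 11.6 CPM, against 17.7, 19.2 and 21.7 CPM in cytosol whole-cell RNA. The groups did not overlap in either comparison. The log2 ratios were -0.79 (SE 0.076, adjusted p = 2.25e-11 by edgeR) and -0.79 (SE 0.076, adjusted p = 4.2e-11), so that ribosome-bound RNA held 57.8% of the whole-cell level with ER targeting and 57.5% with cytosol targeting. These percentages compare levels relative to the other RNAs of a library. The mitochondrial mRNAs stood at 2.03% and 1.87%, but carry-over of nuclear RNA into the purified ribosomes was not tested. Scaled to mRNAs of cytosolic proteins instead, the ER ratio was -0.52, still past the threshold.

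Tug1 was mildly higher on ribosomes. It measured 95.2, 90.8 and 96.6 CPM in ER ribosome-bound RNA, against 61.0, 62.6 and 63.8 CPM in ER whole-cell RNA. On cytosol-targeted ribosomes it measured 69.6, 69.3 and 64.3 CPM, against 58.5, 61.4 and 61.8 CPM in cytosol whole-cell RNA. The ER groups stood well apart, and the cytosol groups were separated by a narrow gap. The difference was 1.51-fold with ER targeting (log2 0.59, SE 0.043, adjusted p = 1.62e-14 by edgeR) and 1.12-fold with cytosol targeting (log2 0.16, SE 0.044, adjusted p = 0.0022). Tug1 overlaps the antisense gene Morc2a, a chromatin ATPase, over 4.96% of its exon length; Morc2a was lower on ribosomes in both comparisons (log2 -0.48, SE 0.044, and -0.26, SE 0.043).

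The 3 RNAs of the Dlk1-Dio3 cluster did not move together. Meg3 measured 79.2, 76.3 and 81.1 CPM in ER ribosome-bound RNA, against 47.5, 49.0 and 49.2 CPM in ER whole-cell RNA. On cytosol-targeted ribosomes it measured 62.8, 62.5 and 64.6 CPM, against 49.4, 45.7 and 46.6 CPM in cytosol whole-cell RNA. The replicates were tight and the groups stood apart. Meg3 was 1.62-fold higher on ER-targeted ribosomes than in ER whole-cell RNA (log2 0.70, SE 0.044, adjusted p = 3.16e-16 by edgeR) and 1.34-fold higher on cytosol-targeted ribosomes than in cytosol whole-cell RNA (log2 0.42, SE 0.045, adjusted p = 4.58e-10).

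Rian, the next gene of the cluster, showed the widest gap of the 7. It measured 19.3, 18.6 and 21.7 CPM in ER ribosome-bound RNA, against 79.2, 81.5 and 81.3 CPM in ER whole-cell RNA. On cytosol-targeted ribosomes it measured 15.0, 14.9 and 16.3 CPM, against 75.7, 78.4 and 75.2 CPM in cytosol whole-cell RNA. Every ribosome-bound library lay far below every whole-cell one. Rian was 4.06-fold lower on ER-targeted ribosomes (log2 -2.02, SE 0.054, adjusted p = 1.59e-27 by edgeR) and 4.96-fold lower on cytosol-targeted ribosomes (log2 -2.31, SE 0.055, adjusted p = 4.64e-28). Ribosome-bound RNA held 24.7% of the whole-cell level with ER targeting and 20.1% with cytosol targeting. Of the 960 tested lncRNA genes, 7 had a lower ratio than Rian in the ER comparison and 6 in the cytosol comparison. The annotation places 13 snoRNAs and 3 microRNA hairpins inside Rian, and genes on the same strand overlap 3.42% of its exon length.

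Mirg had few reads, with 27 to 43 per library on ER-targeted ribosomes, 19 to 33 on cytosol-targeted ribosomes, and 50 to 72 in the 6 whole-cell libraries. It measured 1.92, 1.07 and 1.55 CPM in ER ribosome-bound RNA, against 2.12, 3.15 and 2.39 CPM in ER whole-cell RNA. On cytosol-targeted ribosomes it measured 1.26, 0.736 and 1.11 CPM, against 2.45, 2.17 and 3.15 CPM in cytosol whole-cell RNA. The groups did not overlap, but the ER gap was small. The log2 ratio was -0.75 with ER targeting (SE 0.227, adjusted p = 0.00426 by edgeR) and -1.31 with cytosol targeting (SE 0.235, adjusted p = 1.18e-05). The ER call was lost without ER ribosome-bound replicate 2 (log2 -0.54, adjusted p = 0.0508 by edgeR) and under cytosolic scaling (log2 -0.48, adjusted p = 0.0627). The annotation places 14 microRNA hairpins inside Mirg. Of the 52 microRNA genes of the cluster listed in the files, none passed the count filter.

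Of the cluster's protein-coding genes, 3 were tested. The ER comparison called 3 higher and the cytosol comparison 2, where 32.5% and 20.8% of all tested genes were called higher. Dlk1, a transmembrane ligand related to Notch ligands, was higher on ER-targeted ribosomes than in whole-cell RNA (log2 1.97, SE 0.109) and stood at -0.03 (SE 0.130) on cytosol-targeted ribosomes. Dio3, a membrane-bound enzyme that inactivates thyroid hormone, was higher in both comparisons (log2 2.32, SE 0.160, and 1.19, SE 0.179). Begain, which lies beside Dlk1, was also higher in both (log2 0.35, SE 0.142, and 0.43, SE 0.135). Rtl1, the retrotransposon-like gene antisense to one of the cluster's noncoding RNAs, did not pass the count filter.

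Kcnq1ot1 also had few reads, 28 to 71 per library. It measured 3.17, 2.27 and 1.28 CPM in ER ribosome-bound RNA, against 1.91, 3.25 and 2.32 CPM in ER whole-cell RNA. These groups overlapped, and the log2 ratio of -0.13 (95% interval -0.60 to 0.33, adjusted p = 0.635 by edgeR) did not pass the threshold. On cytosol-targeted ribosomes it measured 1.42, 1.12 and 1.15 CPM, against 2.41, 1.96 and 1.75 CPM in cytosol whole-cell RNA. Here the ribosome-bound libraries all lay lower, with a log2 ratio of -0.74 (SE 0.257, adjusted p = 0.0154 by edgeR). This call was lost without cytosol ribosome-bound replicate 2 (log2 -0.62, adjusted p = 0.0716 by edgeR), without cytosol whole-cell replicate 1 (log2 -0.54, adjusted p = 0.128) and with DESeq2 (log2 -0.70, adjusted p = 0.0521).

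Kcnq1, which Kcnq1ot1 crosses on the opposite strand, averaged 1.71 ± 0.27 CPM on ER-targeted ribosomes, against 1.03 ± 0.12 CPM in whole-cell RNA (SD, n = 3 each). With cytosol targeting it averaged 0.785 ± 0.14 CPM on ribosomes, against 1.14 ± 0.059 CPM in whole-cell RNA. Kcnq1 was higher on ER-targeted ribosomes than in ER whole-cell RNA (log2 0.73, SE 0.238) and stood at -0.53 (SE 0.260) in the cytosol comparison. These values rest on 17 to 44 reads per library. Exons of opposite-strand genes cover 1.2% of Kcnq1ot1, and the share of Kcnq1 reads that the counting may have given to Kcnq1ot1 was not tested. Of the 8 tested coding genes of the domain, 5 were higher and 2 lower on ER-targeted ribosomes (6 higher under cytosolic scaling), and 5 were higher on cytosol-targeted ones. Over all tested genes, 32.5% were called higher and 30.6% lower in the ER comparison, and 20.8% higher in the cytosol comparison. Cytosolic scaling called 8828 of the 16221 tested genes higher and 2056 lower in the ER comparison. In the ER comparison the tetraspanin Cd81 (log2 1.81, SE 0.037) and the transporter Slc22a18 (log2 1.53, SE 0.094), both membrane proteins, had the largest ratios, and the cell cycle inhibitor Cdkn1c was lower (log2 -0.15, SE 0.055).

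**Figure D2:**
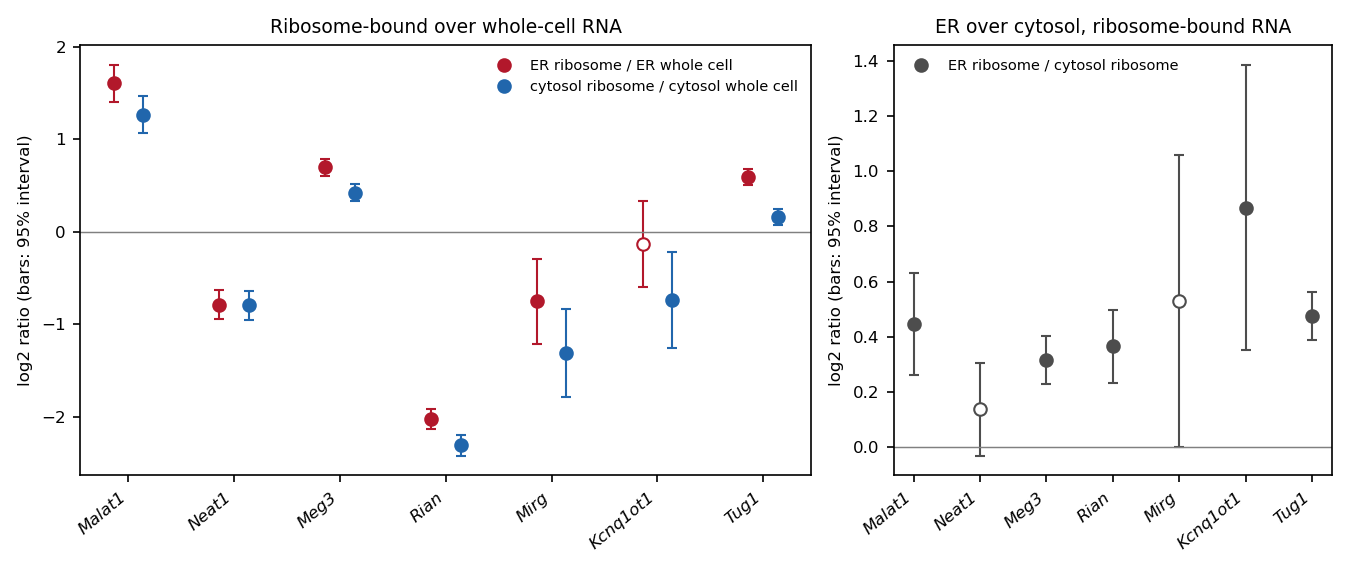
Log2 ratios of the 7 lncRNAs with 95% intervals: ribosome-bound over whole-cell RNA for ER and cytosol targeting (left) and ER over cytosol in ribosome-bound RNA (right). Filled points passed an adjusted p of 0.05 and open points did not; Malat1 at 1.61 and 1.27 is highest and Rian at -2.02 and -2.31 lowest on the left, and all 7 points lie above 0 on the right.

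To 2 decimals, every lncRNA but Neat1 had a higher log2 ratio with ER than with cytosol targeting. The difference between both ratios was itself tested. It was 0.43 for Tug1 (SE 0.062, adjusted p = 3.12e-07 by edgeR), 0.28 for Meg3 (SE 0.063, adjusted p = 0.000414), 0.29 for Rian (SE 0.079, adjusted p = 0.00285) and 0.34 for Malat1 (SE 0.140, adjusted p = 0.0497). It did not pass for Mirg (0.56, SE 0.332), Kcnq1ot1 (0.60, SE 0.346) or Neat1 (0.00, SE 0.108, 95% interval -0.21 to 0.22). These 4 of 7 compare with 24.8% of all tested genes called higher and 18.6% lower (43.4% in either direction), and with 6.67% of lncRNA genes called higher and 0.938% lower (7.60%). The Malat1 value was 0.12 without ER ribosome-bound replicate 3 and 0.16 without cytosol whole-cell replicate 3, with adjusted p of 0.438 and 0.417 by edgeR, and the Rian value was 0.17 without ER ribosome-bound replicate 3 (adjusted p = 0.0811). Under cytosolic scaling all 7 passed, with Neat1 at 0.28, where the median of all genes was itself 0.276 instead of 0.00.

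The direct comparison of both ribosome populations shares its libraries with the ratios above. Over cytosol-targeted ribosomes, 5 of the 7 were higher on ER-targeted ribosomes, where 29.1% of all tested genes were called higher and 24.6% lower (53.6% in either direction), and where 9.90% of lncRNA genes were called higher and 0.938% lower (10.8% in either direction). The median log2 ratio was 0.45 for the 7, 0.09 for the lncRNA genes and 0.00 for all genes. Tug1 averaged 94.2 ± 3.0 CPM on ER-targeted and 67.7 ± 2.9 CPM on cytosol-targeted ribosomes (SD, n = 3 each), a log2 ratio of 0.48 (SE 0.043, adjusted p = 4.18e-12 by edgeR). Meg3 averaged 78.9 ± 2.4 CPM on ER-targeted and 63.3 ± 1.2 CPM on cytosol-targeted ribosomes, a log2 ratio of 0.32 (SE 0.043, adjusted p = 6.47e-08). Rian averaged 19.9 ± 1.6 and 15.4 ± 0.82 CPM in the same groups, a log2 ratio of 0.37 (SE 0.065, adjusted p = 8.61e-06), or 0.24 without ER ribosome-bound replicate 3.

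Malat1 averaged 196 ± 38 CPM on ER-targeted and 144 ± 15 CPM on cytosol-targeted ribosomes (SD, n = 3 each). The groups did not overlap, but the lowest ER library (165 CPM) was close to the highest cytosol library (158 CPM). The log2 ratio of 0.45 (SE 0.091, adjusted p = 7.1e-05 by edgeR) was 0.23 without ER ribosome-bound replicate 3, and it did not pass with DESeq2 (log2 0.40, adjusted p = 0.0592). Kcnq1ot1 averaged 2.24 ± 0.95 CPM on ER-targeted and 1.23 ± 0.16 CPM on cytosol-targeted ribosomes, and the libraries overlapped. Its log2 ratio of 0.87 (SE 0.254, adjusted p = 0.00393 by edgeR) rested on ER ribosome-bound replicate 1, since without it the value was 0.49 (adjusted p = 0.14). Kcnq1 on the opposite strand was higher on ER-targeted ribosomes too (log2 1.11, SE 0.243), and its part in the Kcnq1ot1 value was not tested. Mirg (log2 0.53, SE 0.261, adjusted p = 0.0873 by edgeR) and Neat1 (log2 0.14, SE 0.082, adjusted p = 0.165) did not pass, although the 3 ER libraries of Neat1 all lay above its 3 cytosol libraries. Without ER ribosome-bound replicate 2 Mirg passed (log2 0.68, adjusted p = 0.0349).

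The scaling sets how the calls divide over the whole transcriptome. When libraries were scaled to 80 mRNAs of cytosolic proteins, the median of all genes was 0.26 in the direct comparison instead of 0.00, and 95.1% of the called genes were higher on ER-targeted ribosomes, against 54.2% with TMM scaling. For ER-targeted ribosomes over ER whole-cell RNA the median was 0.29 instead of 0.01, and the share of higher calls was 81.1%, against 51.5%. In the direct comparison all 7 lncRNAs lay above the median of all genes. A change of scaling shifts all genes by nearly the same amount, so the second scaling could not test this.

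In whole-cell RNA the targeting made no difference that passed the test. Malat1 averaged 64.2 ± 2.7 CPM in ER-targeted and 59.7 ± 13.3 CPM in cytosol-targeted cells (SD, n = 3 each), and Rian averaged 80.6 ± 1.3 and 76.4 ± 1.7 CPM. Log2 ratios of the 7 ran from -0.03 for Mirg to 0.27 for Kcnq1ot1, all with an adjusted p of 0.998 by edgeR. No gene of the 16221 was called by edgeR (0 higher and 0 lower, 0% called), with 634 at an unadjusted p under 0.05, and DESeq2 called 0 as well, with 320 at an unadjusted p under 0.05.

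**Figure D3:**
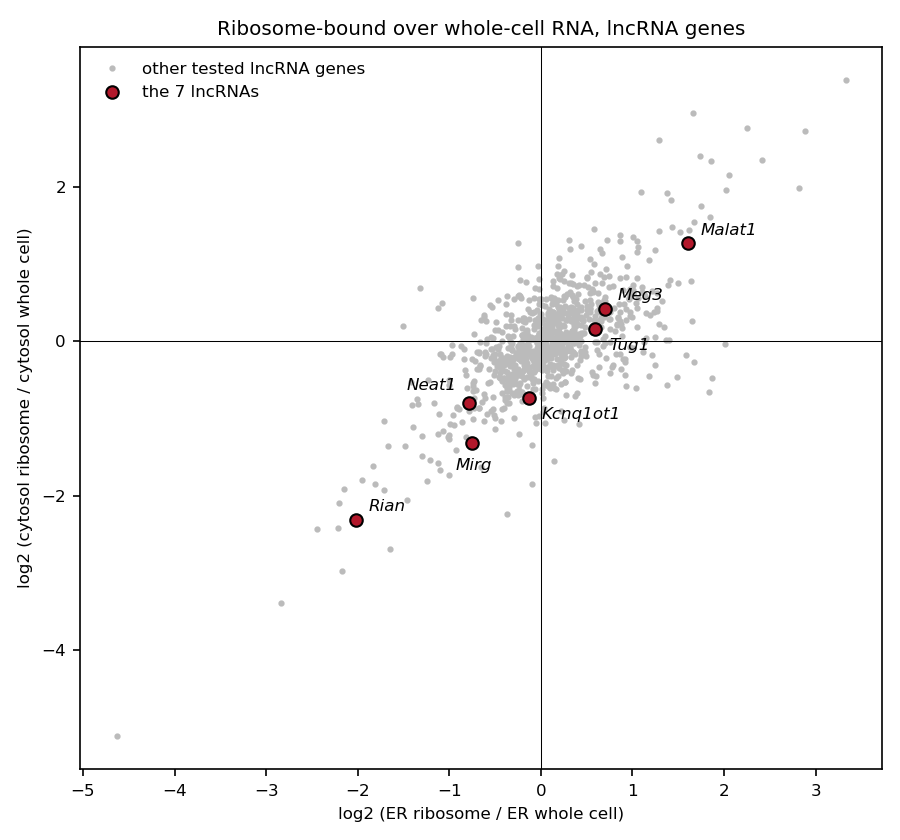
Log2 ratio of ribosome-bound over whole-cell RNA for ER targeting (horizontal) and cytosol targeting (vertical), 1 point for each of the 960 tested lncRNA genes, with the 7 lncRNAs in red. Malat1 lies towards the upper right end and Rian towards the lower left end of the cloud, and the other 5 lie nearer the centre.

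Counts do not compare the abundance of genes of unequal length, so levels were also taken per kb of annotated exon. Per kb, Malat1 was first of the 7 in every group, at 28.1 ± 5.5 CPM per kb in ER ribosome-bound RNA, 20.6 ± 2.1 in cytosol ribosome-bound RNA, 9.20 ± 0.39 in ER whole-cell RNA and 8.56 ± 1.9 in cytosol whole-cell RNA (SD, n = 3 each). Tug1 came second in every group, at 9.68, 6.96, 6.42 and 6.22 CPM per kb in the same order of groups. In ribosome-bound RNA Meg3 came next (4.36 and 3.50 CPM per kb) and Rian after it (1.09 and 0.84). In whole-cell RNA the order of these neighbours was reversed, with Rian at 4.42 and 4.19 and Meg3 at 2.69 and 2.61 CPM per kb. Neat1 (0.59 and 0.54 on ribosomes, 1.03 and 0.94 in whole-cell RNA), Mirg and Kcnq1ot1 followed, the last at 0.024 and 0.013 CPM per kb on ribosomes and 0.027 and 0.022 in whole-cell RNA. Annotated exon length is the union over transcripts, so a gene read mainly from a short form is understated.

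Genes with long transcripts tended to be lower in ribosome-bound RNA, and all of the 7 lncRNAs but Mirg have an annotated transcript over 4 kb. In the ER comparison the median log2 ratio was 0.14 for the 2911 tested genes with a longest annotated transcript of 1 to 2 kb, -0.12 for the 4567 genes of 4 to 8 kb, -0.33 for the 790 genes of 8 to 16 kb and -0.46 for the 37 genes over 16 kb. In the cytosol comparison the medians of the same genes were 0.11, -0.21, -0.55 and -0.59. Against genes of its own length class, Rian had the lowest ratio of 790 genes in the ER comparison, and 3 of the 790 were lower in the cytosol comparison. Neat1 lay inside the class of its longest form, with 27 of the 37 genes above it and 9 below in the ER comparison. In the cytosol comparison 20 were above and 16 below. Kcnq1ot1 was in the same class, with 11 above and 25 below, and with 19 above and 17 below. A shorter form of Neat1, Neat1-202, is annotated at 3004 nt. In the class of 2 to 4 kb the 10th percentiles were -0.39 and -0.49, above the Neat1 ratio of -0.79 in both comparisons. Which form of Neat1 was read was not tested.

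Malat1 and Meg3 stood at the other end of their classes. Malat1 was exceeded by 136 of 4567 genes of 4 to 8 kb in the ER comparison and by 15 in the cytosol comparison. Meg3 was exceeded by 102 and by 18 of the 790 genes of 8 to 16 kb. It has shorter annotated forms too, such as Meg3-201 of 1988 nt. In the class of 1 to 2 kb the upper quartiles were 0.70 and 0.30, beside Meg3 ratios of 0.70 and 0.42. Tug1 was exceeded by 997 and 674 of the 4567 genes of its class. Mirg, in the class of 2 to 4 kb, had 113 of 6299 genes below it in the ER comparison and 32 in the cytosol comparison. The lengths are those of the annotation, and the part that length plays in these ratios was not tested. This description by length was added after the other results had been seen.

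**Figure D4:**
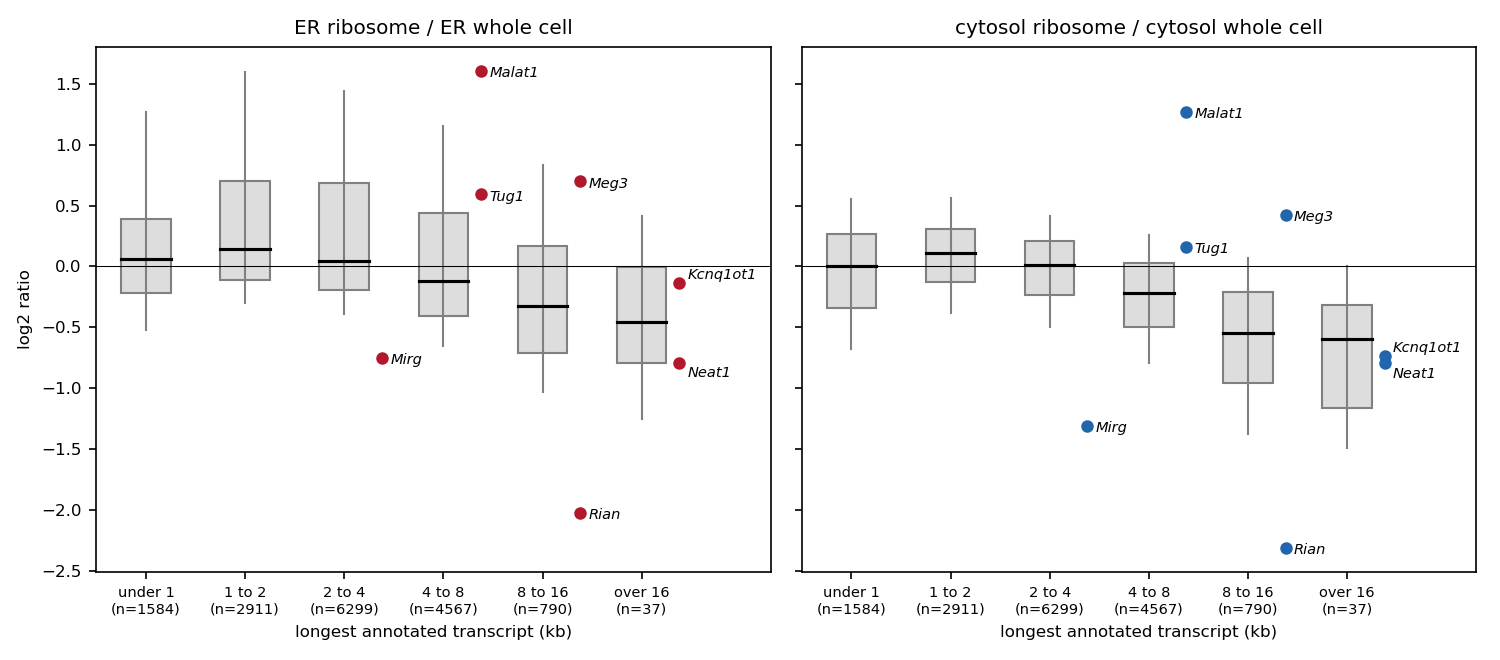
Log2 ratio of ribosome-bound over whole-cell RNA by length of the longest annotated transcript, for ER targeting (left) and cytosol targeting (right): black lines are medians of all tested genes in a class, boxes the quartiles and thin lines the 10th to 90th percentile, with the 7 lncRNAs as coloured points to the right of their class. Medians fall to -0.46 and -0.59 in the longest class; Neat1 lies near them, Rian far below and Malat1 and Meg3 above.

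The genes whose profile over the 12 libraries was nearest to each lncRNA were all protein-coding. The share of protein-coding genes in the pool searched was not counted. Nearness was the Euclidean distance between centred log2 profiles, among 11027 genes with a mean of at least 5 CPM (11028 for Mirg and Kcnq1ot1, which are below that level). Nearest to Rian were Mdn1, an ATPase of ribosome assembly, Dync1h1, the dynein heavy chain, and Map1a, a microtubule-binding protein, at distances of 0.214, 0.361 and 0.419, where the median gene stood at 3.81. Their ER ratios were -2.07, -1.89 and -1.91. These come from the same libraries as the distances, so closeness to the Rian ratio was set by the choice. Nearest to Neat1 were Top2b, a DNA topoisomerase, Rad21, a cohesin subunit, and Dtl, a substrate receptor of a ubiquitin ligase, at distances of 0.232 to 0.243, where the median was 1.49. Nearest to Malat1 were Bclaf1, a nuclear RNA-processing factor, S100a6, a calcium-binding protein, and Nectin4, an adhesion molecule, at 0.725 to 0.855, where the median was 2.75. Meg3 was nearest to the Golgi protein Gorasp2 (0.172), and Tug1 to Ccne1, which encodes cyclin E1 (0.199). For Mirg and Kcnq1ot1 the nearest genes, Cep290 (0.814) and Specc1 (0.962), were less close.

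Other noncoding RNAs of the same kinds were taken as lists. Among the other imprinted noncoding RNAs, 2 of 3 tested were lower on ribosomes in both comparisons. Lower calls made up 30.6% and 33.0% of all tested genes, and 13.3% and 15.9% of tested lncRNA genes. H19, the maternal RNA beside Igf2, averaged 0.531 ± 0.15 CPM on ER-targeted ribosomes, against 2.41 ± 0.14 CPM in whole-cell RNA (SD, n = 3 each). With cytosol targeting it averaged 0.259 ± 0.12 CPM on ribosomes, against 2.10 ± 0.34 CPM in whole-cell RNA. On ribosomes these averages rest on 4 to 15 reads per library. Its log2 ratios were -2.17 (SE 0.265) and -2.97 (SE 0.302). Snhg14, the snoRNA host of the Prader-Willi region, stood at -1.07 and -1.16 (SE 0.109 for both). Nespas, with 13 to 25 reads per library, stood at 0.07 and 0.09, which did not pass. The medians were -1.07 and -1.16, beside 0.08 and -0.03 over the lncRNA genes tested.

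Among X-linked lncRNAs, Tsix had the highest ratios. It averaged 10.3 ± 1.7 CPM on ER-targeted ribosomes, against 2.44 ± 0.17 CPM in whole-cell RNA (SD, n = 3 each). With cytosol targeting it averaged 8.98 ± 0.95 CPM on ribosomes, against 2.03 ± 0.57 CPM in whole-cell RNA. The ratios were 4.17-fold and 4.43-fold (log2 2.06, SE 0.147, and 2.15, SE 0.153). In whole-cell RNA these rest on 46 to 65 reads per library with ER targeting and 37 to 61 with cytosol targeting. Tsix is antisense to Xist, and Xist itself had 0 to 4 reads per library. Firre was lower in both (log2 -0.13 and -0.38), the first turning to 0.14 under cytosolic scaling. Jpx, with 3 to 14 reads per library, was lower in the ER comparison (log2 -1.09, SE 0.464), a call lost under cytosolic scaling (log2 -0.82). Ftx, with 35 to 58 reads per library, did not pass in either. Of the 4 tested nuclear lncRNAs of the remaining list, Dleu2 was lower in both (log2 -0.99, SE 0.168, and -1.07, SE 0.164), and Sox2ot, Pvt1 and Miat did not pass. Sox2ot had 10 to 34 and Miat 14 to 37 reads per library. In the ER and cytosol comparisons, 30.6% and 33.0% of all tested genes were called lower, and 32.5% and 20.8% higher. Among tested lncRNA genes, 13.3% and 15.9% were called lower, and 16.2% and 10.3% higher.

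The snoRNA host and cytoplasmic lncRNAs, several of which are known targets of nonsense-mediated decay, were lower for 8 of 9 tested in both comparisons, with medians of -0.26 and -0.64. Lower calls made up 30.6% and 33.0% of all tested genes, and 13.3% and 15.9% of tested lncRNA genes. Snhg6 stood at -0.53 and -0.87 and Snhg8 at -0.39 and -0.77, while Dancr, at -0.08 and -0.18, did not pass. Under cytosolic scaling, 2 of the 9 were higher and 2 lower in the ER comparison, with a median of 0.01, and the cytosol comparison kept 8 lower. That scaling called 8828 of all 16221 tested genes higher and 2056 lower in the ER comparison, with a median of 0.29 over all genes. Of the 3 mRNAs known for introns that keep them in the nucleus, Ogt was lower in both (log2 -0.38 and -0.43), as was Clk4 (-0.24 and -0.21), while Clk1 stood at 0.06 and did not pass in the ER comparison and was lower in the cytosol comparison (-0.16), so that all 3 were lower there. Under cytosolic scaling the ER comparison gave 1 higher in place of 2 lower.

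**Figure D5:**
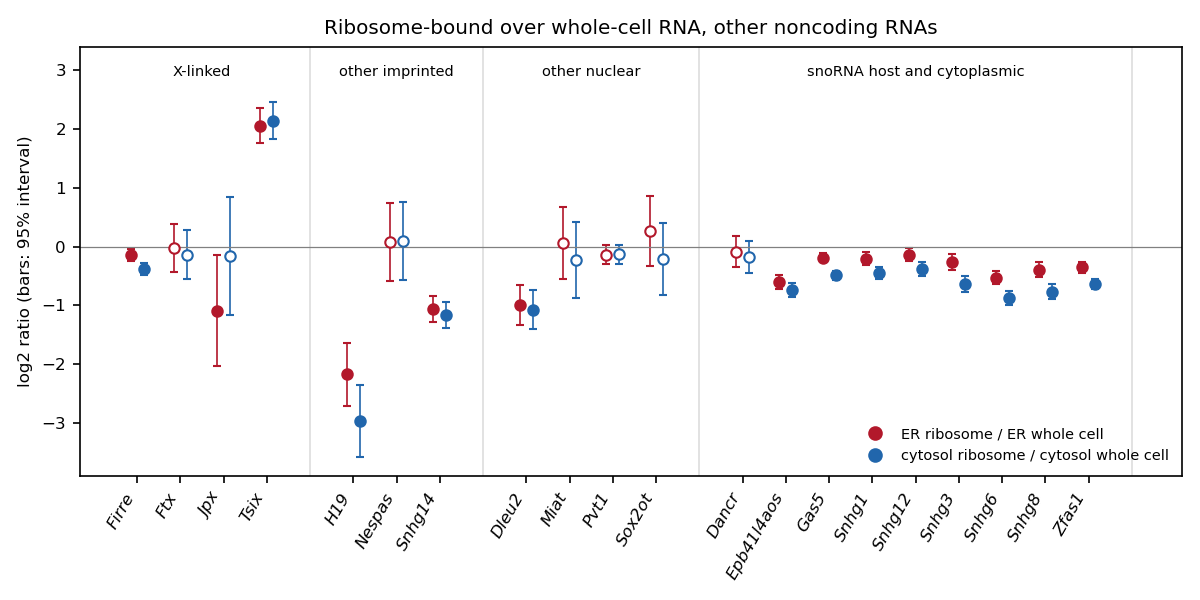
Log2 ratio of ribosome-bound over whole-cell RNA with 95% intervals for 20 other noncoding RNAs in 4 lists, for ER targeting (red) and cytosol targeting (blue); filled points passed an adjusted p of 0.05. Tsix lies above 2 in both, H19 below -2 in both, and the snoRNA host and cytoplasmic RNAs lie between -0.87 and -0.08.

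The mRNAs of the proteins that work with Malat1 and Neat1 were read as coding partners. Of 14 paraspeckle protein mRNAs, 8 were lower on ER-targeted ribosomes over ER whole-cell RNA, with Cpsf6, a cleavage factor subunit, at -0.59 (SE 0.048) and Sfpq, which binds Neat1, at 0.01 (SE 0.047). On cytosol-targeted ribosomes 9 were higher and 2 lower than in cytosol whole-cell RNA, with Dazap1 at 0.39 (SE 0.033) and Sfpq at 0.37 (SE 0.046). Under cytosolic scaling, 7 were higher and 3 lower in the ER comparison. That scaling called 8828 of all 16221 tested genes higher and 2056 lower there. Of 9 nuclear speckle protein mRNAs, 6 were higher and 1 lower in each comparison, but the lower one was not the same gene. In the ER comparison it was Srsf11, at -0.48 (SE 0.040), which stood at -0.03 (SE 0.039) and did not pass in the cytosol comparison. In the cytosol comparison it was Srrm2, at -0.24 (SE 0.043), which was higher in the ER comparison, at 0.42 (SE 0.043). Son, a scaffold of speckles, stood at 0.67 (SE 0.047) on ER-targeted and 0.12 (SE 0.047) on cytosol-targeted ribosomes over whole-cell RNA. With TMM scaling, 32.5% of all tested genes were called higher and 30.6% lower in the ER comparison, and 20.8% and 33.0% in the cytosol comparison. None of these lists was tested as a set. Among coding genes near Malat1, Neat1 or Tug1, Ehbp1l1 and Morc2a were lower in both comparisons. Ltbp3 was higher in the ER comparison (log2 0.16, SE 0.067, against -0.15, SE 0.069, with cytosol targeting, which did not pass) and Frmd8 in the cytosol comparison (log2 0.18, SE 0.044), which stood at 0.00 (SE 0.046) with ER targeting.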

How the data were processed

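Poly(A) RNA of 12 libraries was read as paired ends from a directional kit, per the labels' protocols. The authors deposited raw counts of reads for each Ensembl gene, and no column of another sample was present. Per the submitters' processing notes, STAR 2.7.9a, HTSeq 0.11.2, DESeq2 and GRCm39 were used. The sources used here do not give the annotation release, the strand setting or how multimapped reads were handled, so antisense and overlapping genes are uncertain. The 5 totals of uncounted reads (8.75% to 12.5% of a library) were left out.

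Gene names, types, lengths and transcript sequences came from GENCODE M21 on GRCm38, which matched 52135 of 55416 identifiers, and no coordinates were taken from it. All 4 groups were fitted in 1 model with edgeR 4.0.16 in R 4.3.3, with filterByExpr, TMM (trimmed mean of M-values) scaling and the 2-sided quasi-likelihood test, and p-values were Benjamini-Hochberg adjusted over 16221 genes. CPM are TMM-scaled. An SE was taken as the size of the log2 ratio divided by the root of F, and covers counting and replicate spread, not PCR. The biological coefficient of variation was 3.61%. The fit was tested on simulated counts. There it recovered 50% to 53% of 1.25-fold changes, 67% to 82% of 1.5-fold changes and 100% of 4-fold changes. Replicates differed by more than counting noise. Alternatives were other scalings (RLE, 80 cytosolic mRNAs, no mitochondrial genes), no filter, only the compared groups, replicate blocks, each library left out and DESeq2 1.42.0. The lncRNAs and all gene lists were chosen with earlier results of these data known. Genes named are the 7 lncRNAs, their 3 nearest genes, all of the imprinted, X-linked and domain lists, and from other lists the 3 largest changes and the one nearest 0. The snoRNA hosts in the closing section, Morc2a and the other coding neighbours fall outside this and were named after their values were seen.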

Additional observations from a re-analysis of the deposited data

Results flagged for a closer look

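For 4 of the 7 lncRNAs the ribosome-bound over whole-cell ratio differed between ER and cytosol targeting by a test of the difference itself (log2, ER minus cytosol, edgeR's quasi-likelihood test). The difference was 0.34 for Malat1 (adjusted p = 0.0497), whose ratios were 1.61 and 1.27. It was 0.28 for Meg3 (adjusted p = 0.000414), 0.29 for Rian (adjusted p = 0.00285) and 0.43 for Tug1 (adjusted p = 3.12e-07). Under 12 of 19 alternatives the Malat1 difference did not pass.

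Among 20 other noncoding RNAs the same test called 8 higher, all with a ratio less far below 0 for ER than for cytosol targeting, where it called 24.8% of all tested genes and 6.67% of lncRNA genes higher. Of the 8, 7 were among the 9 tested snoRNA host and cytoplasmic lncRNAs, and Firre was 1 of 4 tested X-linked lncRNAs. The 3 tested imprinted and 4 other nuclear lncRNAs did not pass. The difference was 0.29 for Gas5, 0.29 for Zfas1, 0.38 for Snhg3, 0.25 for Firre, 0.25 for Snhg12, 0.35 for Snhg6, 0.37 for Snhg8 and 0.25 for Snhg1, with adjusted p between 1.87e-05 and 0.0113 by edgeR. The median of all tested genes was 0.00 for this difference, and 0.276 under cytosolic scaling.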

How the results depend on the processing

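Of 679 alternative values for the 7 lncRNAs, 652 kept their side of the threshold, and no called ratio among these changed direction. Uncalled ratios could change sign, as that of Kcnq1ot1 did in the ER comparison (-0.46 to 0.14). The 679 include ER over cytosol whole-cell RNA, where none of the 7 was called. In both ribosome-bound over whole-cell comparisons the calls for Malat1, Neat1, Meg3, Rian and Tug1 held under all 20 alternatives, with ER log2 ratios of 1.44 to 1.88 for Malat1, -0.82 to -0.52 for Neat1, 0.68 to 0.97 for Meg3, -2.09 to -1.75 for Rian and 0.57 to 0.86 for Tug1. Scaling to cytosolic mRNAs moved most. It gave 8828 genes higher and 2056 lower on ER-targeted ribosomes over whole-cell RNA (5271 and 4967 with TMM), 8736 higher and 450 lower for ER over cytosol ribosomes (4715 and 3983), and 7170 and 232 for the difference between targetings (4023 and 3010), with 7 lncRNAs higher instead of 4. It put Mirg at -0.48 in the ER comparison, no longer called, and called Mirg (0.79) and Neat1 (0.40) in ER over cytosol. It also raised Meg3 to 0.58, Rian to 0.63, Malat1 to 0.71 and Tug1 to 0.74 in ER over cytosol, and it turned the ER ratios of Firre (0.14), Gas5 (0.084), Snhg1 (0.071), Snhg12 (0.14) and Snhg3 (0.011) to above 0. With DESeq2, Kcnq1ot1 in the cytosol comparison (-0.70) and Malat1 in ER over cytosol (0.40) were not called. Without the count filter, 7 genes were lower in ER than in cytosol whole-cell RNA. With each library left out in turn, that count ran from 0 to 2, Mirg ran from -0.96 to -0.54 in the ER comparison and from 0.26 to 0.69 in ER over cytosol, and Kcnq1ot1 ran from -0.85 to -0.54 in the cytosol comparison and from 0.49 to 1.08 in ER over cytosol. Apart from the scaling, the cause was not tested.

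Same-numbered replicates of the ribosome-bound and whole-cell groups correlated at -0.01, 0.31 and 0.32 with ER targeting and at 0.11, 0.10 and 0.07 with cytosol targeting, and not every library correlated best with its own number, so the numbers were not taken as pairs. A replicate block by number gave 5240 higher and 4934 lower genes in the ER comparison and 3343 and 5326 in the cytosol comparison, and a block by lysate gave 5362 and 5086, and 3542 and 5502. No call for the 7 lncRNAs changed under a block. Depth limits Mirg, Kcnq1ot1, Kcnq1, H19, Jpx, Nespas, Ftx, Miat and Sox2ot, whose libraries held at most 72 reads each.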
